A study of Mus musculus with 20 samples.

Results

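The livers of NZO/Hl mice (NZO here) were compared with those of C57/Bl6 mice (B6 here) by whole-transcript array, 1 array for each of 5 NZO and 5 B6 animals. These 10 arrays were taken by the strain given in their labels, out of 20 in the series. All were male mice aged 6 weeks that had eaten a high-fat diet since weaning at 21 days, whose energy came to 45% from fat, to 35% from carbohydrate and to 20% from protein, so the comparison is of 2 inbred strains on this diet and holds no lean diet. NZO is a polygenic strain that becomes obese and, in males, often diabetic; B6 is the common reference strain, whose substrain the labels do not give. The series concerns Nudt19, a peroxisomal hydrolase of coenzyme A, and its arrays were made to look for candidate genes. Every probe set with exactly 1 gene symbol was considered, which gave 19938 genes, of which 14190 were bright enough on at least 5 of the 20 arrays to be tested. Nothing in the labels says whether animals of a strain shared a litter or cage, so the p-values measure the spread between the arrayed animals only. The fit estimated that spread within strains over all 20 arrays of the series. Animals of the other strains, C3H and 129P2, thus enter its standard errors and p-values, except where only NZO and B6 were fitted.

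The liver makes most plasma proteins, turns dietary sugar into fatty acids, builds bile acids from cholesterol, and oxidizes and conjugates steroids and foreign compounds. Cytochromes P450 carry out much of that oxidation, and glutathione and sulfate transferases much of the conjugation. In an inflammatory state hepatocytes raise a set of secreted acute phase proteins, and after feeding, insulin raises the transcription of fatty acid synthesis and lowers that of glucose release. The lists of genes for each of these functions are described below by their counts and medians. Each count is to be read against the shares of all tested genes that were higher and lower, and each median against that of all tested genes, given in the next paragraph. Where a list holds only 1 or 2 called genes in a direction, leaving out a single animal often adds or removes them.

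Levels are log2 signals from robust multi-array averaging, so a difference of 1 is 2-fold, and differences are NZO minus B6 with the standard error (SE) of a limma fit. A gene counts as higher or lower where limma's adjusted p was under 0.05. By that rule 1457 of 14190 tested genes (10.3%) differed, with 515 (3.63%) higher and 942 (6.64%) lower in NZO. Most differences were small: the median size over the called genes was 0.41, and 127 genes, 0.895% of all tested, were called with at least a 2-fold difference, 55 higher and 72 lower. In 995 called genes (7.01%) the 5 NZO values and the 5 B6 values did not overlap, with 354 (2.49%) higher and 641 (4.52%) lower. The median difference of all tested genes was 0.009, and the median standard deviation of a gene was 0.14 in NZO and 0.11 in B6. A level is called dim where it lay below the 40th percentile of the values on that array, and where all 5 animals of a strain were dim the difference is given as a bound against that percentile.

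Arrays also differed in how widely their values were spread, and the NZO arrays were on average narrower than the B6 arrays. The interquartile range of an array was 2.495, 2.202, 2.296, 2.38 and 2.289 log2 units in NZO replicates 1 to 5, and 2.408, 2.34, 2.479, 2.474 and 2.445 in B6. NZO replicate 1 thus had the widest spread of the 10 and the other NZO arrays mostly lay below B6. The sample titles end in a number, which is consecutive over NZO replicates 2 to 5 and stands apart for NZO replicate 1. In B6 too replicate 1 has the number farthest from the others. What the number stands for is not given. The mean difference was -0.097 (exact two-sided permutation p = 0.119), and -0.137 without NZO replicate 1 (exact p = 0.0317). With this spread as a covariate in the fit, 6948 tested genes (49%) followed it, and 1378 genes differed between the strains (9.71%), with 711 higher (5.01%) and 667 lower (4.7%). The share of lower genes among the calls was then 48.4%, against 64.7% without the covariate, so the excess of lower genes was not seen with it. Without the covariate that share also moved with the processing. It was 74.3% with equal array medians (358 higher, 1035 lower), 70.5% with the filter at the 60th percentile and 58% after quantile normalization again. Both fits called the same 999 genes in the same direction (7.04%), 384 higher (2.71%) and 615 lower (4.33%). Another 458 were called only without the covariate, 327 of them lower, and 379 only with it, 327 of them higher. What part array spread has in a single difference was not tested, and values with the covariate are given below beside the lists. B6 replicate 3 stood apart too: among the genes described here it was the animal farthest from its group in 9 of 16 cases of an outlying value. Without it 1098 genes were called, and without NZO replicate 1 there were 2175.

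**Figure D1:**
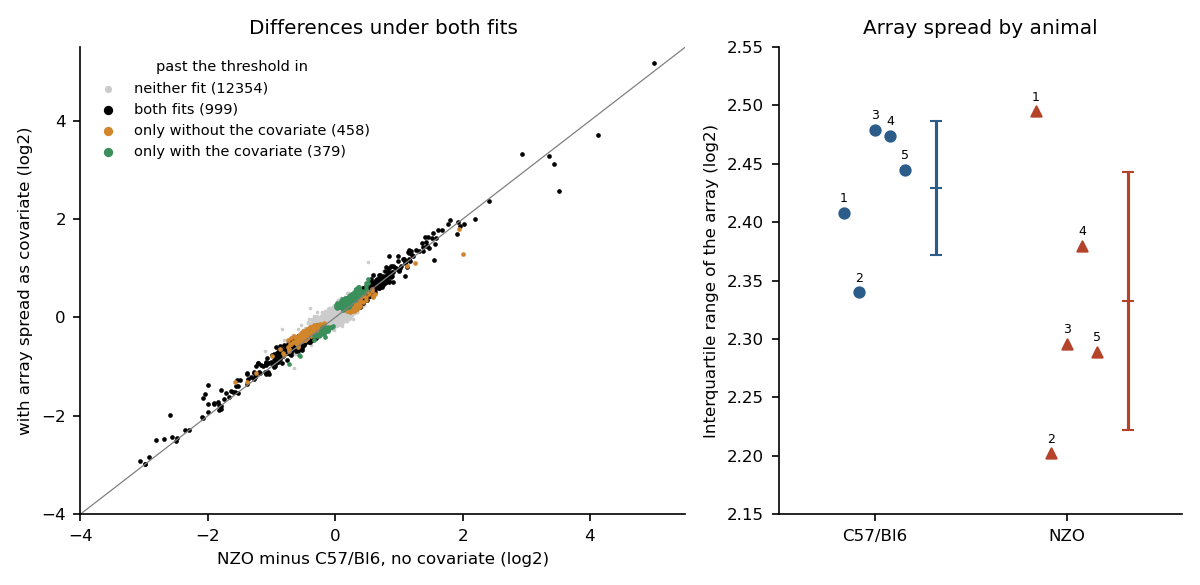
Left, the difference of every tested gene between NZO and B6 (log2) without the covariate (horizontal) and with array spread as a covariate (vertical), coloured by the fit that called it; 999 genes were called in both. Right, the interquartile range of each array (log2 units) with its replicate number, and beside the points the mean ± SD of 5 animals; NZO replicate 1 lies highest at 2.495 and NZO replicate 2 lowest at 2.202.

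Several enzymes of steroid and xenobiotic metabolism were among the largest differences. Akr1c18, which inactivates progesterone, read 11.66, 11.01, 10.91, 11.49 and 11.41 in the NZO animals and 5.91, 6.1, 7.33, 6.22 and 5.94 in the B6 animals. It was bright in every NZO liver and dim in every B6 liver but replicate 3. Its relative Akr1c12 went the other way, with 5.86 to 7.09 in NZO and 9.09 to 9.31 in B6 and a difference of -2.69 ± 0.15 (SE; limma adjusted p = 1.74e-11), dim in 3 NZO animals. Akr1e1, another aldo-keto reductase, was lower (-1.56 ± 0.20). Hsd3b2, of the family that makes and breaks 3-keto steroids, was higher by 1.77 ± 0.16 (adjusted p = 4.22e-08), its NZO values of 11.23 to 11.49 all above the B6 values of 8.87 to 10. Adh6-ps1, an alcohol dehydrogenase pseudogene, read 6.99 to 7.26 in NZO and 9.02 to 10.82 in B6, and Aldh3a2, which oxidizes long-chain fatty aldehydes, read 8.53 to 9.52 and 10.44 to 11.41. Rdh16f2, a retinol dehydrogenase, was lower too (-2.48 ± 0.15), which is 5.57-fold.

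**Figure D2:**
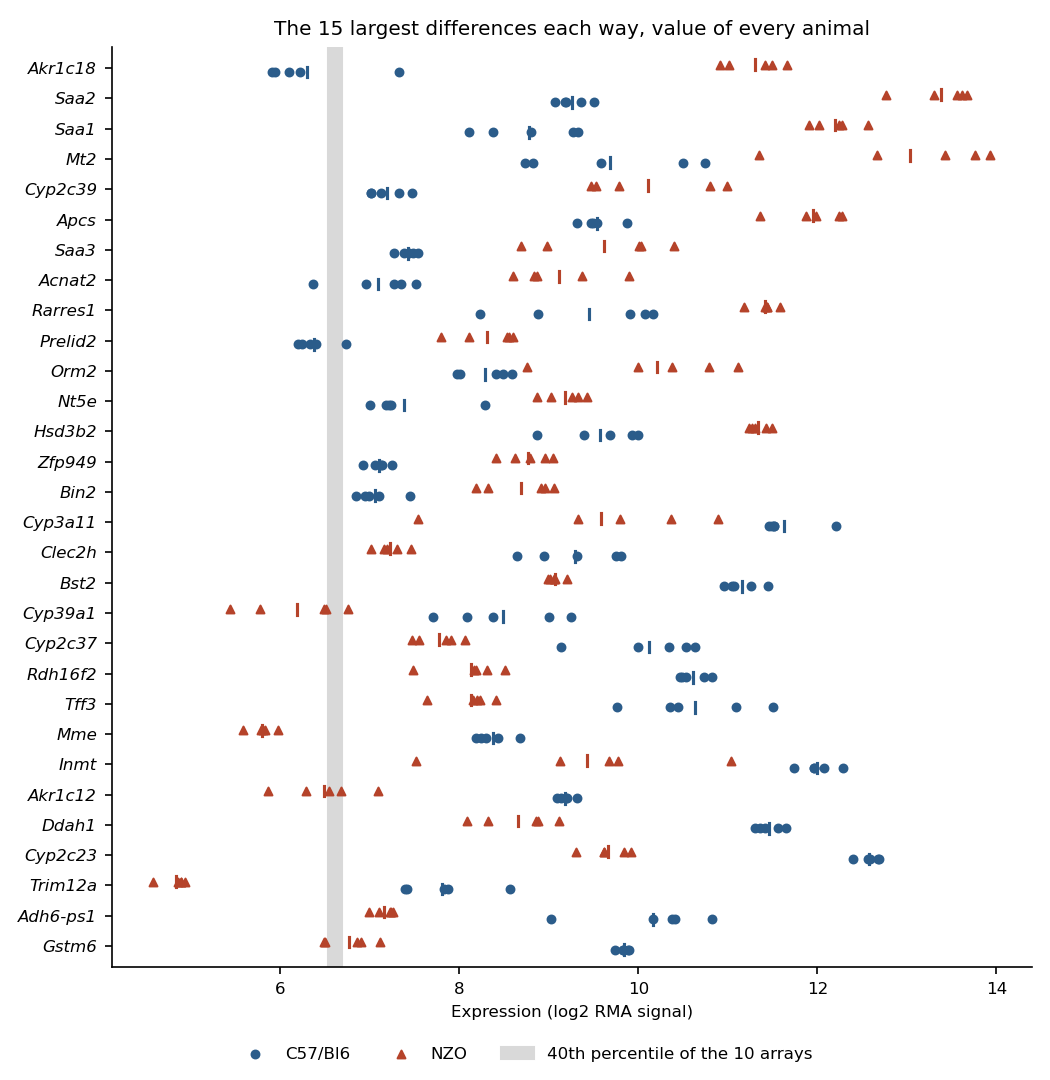
Level of every animal (log2 signal, horizontal) for the 15 largest differences in each direction among called genes whose strains did not overlap, with short bars at the group means (n = 5) and a grey band at the 40th percentiles of the 10 arrays. Akr1c18 is the widest gap, with group means of 11.3 in NZO and 6.3 in B6.

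Several enzymes that methylate, cleave or degrade small messengers were among the lower genes. Inmt, which methylates indole amines, read 11.03, 7.51, 9.12, 9.67 and 9.77 in NZO and 12.07, 11.74, 11.96, 12.29 and 11.96 in B6. The NZO animals were spread widely while the B6 animals lay close together, and every NZO value was below every B6 value. The difference was -2.59 ± 0.38 (SE; limma adjusted p = 7.23e-05), -2.11 without NZO replicate 2 and -1.99 with the covariate. Ddah1, which degrades the nitric oxide synthase inhibitor asymmetric dimethylarginine, read 8.08 to 9.11 in NZO and 11.3 to 11.65 in B6. Its difference was -2.81 without the covariate and -2.49 with it. The membrane peptidase Mme was dim in all 5 NZO animals (5.58 to 5.97) against 8.18 to 8.68 in B6, so NZO was lower by at least 3.35-fold. Nt5e, the ecto-enzyme that makes adenosine from AMP, was higher in NZO by 1.80 ± 0.19 (adjusted p = 7.78e-07), with 8.87 to 9.43 against 7.0 to 8.29.

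Among the other genes of large difference, Tff3, a secreted trefoil peptide, read 8.23, 8.2, 8.41, 8.15 and 7.64 in NZO and 10.44, 9.76, 11.09, 11.5 and 10.35 in B6. The groups did not overlap, and the difference of -2.50 ± 0.24 (SE) had a limma adjusted p of 1.19e-07. Rarres1, a retinoid-responsive membrane protein, was higher by 1.96 ± 0.25, the NZO animals lying at 11.18 to 11.58 and the B6 animals more widely at 8.23 to 10.16. Prelid2, of a family of mitochondrial lipid carriers, was higher by 1.93 ± 0.14 and dim in 4 B6 animals. Bin2, a membrane-bending protein of blood cells, was higher by 1.62 ± 0.17 and the zinc finger gene Zfp949 by 1.67 ± 0.11. Ccnd1, cyclin D1 of the G1 phase, was lower (-1.26 ± 0.21), with -0.99 without B6 replicate 3, where it read 10.66 against 9.0 to 9.73 in the other B6 animals. Of the whole cell cycle list 2 of 14 tested genes were lower and 0 higher, with a median of -0.05, and 1 was lower with the covariate.

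Many genes that make fatty acids and triglycerides were lower in NZO. Of 26 tested members 11 were lower and 1 was higher, with a median difference of -0.60, where 6.64% of all tested genes were lower and the median over all was 0.009. With the covariate 10 were lower and the median was -0.37. Without NZO replicate 1 the count was 15, and without B6 replicate 3 it was 11. The transcription factor Srebf1, which insulin raises and which drives this pathway, read 9.44, 9.06, 9.27, 9.52 and 9.19 in NZO and 10.24, 9.98, 10.28, 10.63 and 10.41 in B6. All NZO animals were below all B6 animals, and the difference was -1.01 ± 0.12 (SE; limma adjusted p = 3.35e-06), with -0.91 under the covariate.

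Of its downstream enzymes, Fasn, fatty acid synthase, read 9.87, 9.36, 9.95, 10.43 and 9.6 in NZO and 10.28, 11.17, 11.35, 11.96 and 11.37 in B6. Only B6 replicate 1 fell within the NZO range, and the difference was -1.39 ± 0.30 (SE; limma adjusted p = 0.00304). Scd1, the desaturase that makes oleate, had the largest difference of the list, -1.91 ± 0.25 (adjusted p = 1.42e-05), or 3.75-fold. It read 11.63, 11.91, 11.59, 11.11 and 10.34 in NZO and 13.06, 13.12, 13.46, 13.45 and 13.03 in B6, with no overlap. Its neighbour Scd2 was lower (-1.04 ± 0.18), and so was Elovl6, which elongates palmitate (-1.13 ± 0.24). The exception was Elovl3, an elongase of very long chains, which was higher by 1.08 ± 0.28 (adjusted p = 0.0147). Elovl3 read 12 to 12.93 in NZO and 10.33 to 12.14 in B6, and without B6 replicate 3, the lowest, its difference was 0.83 (adjusted p = 0.0491). Pparg, the lipid storage regulator, read 7.06 to 7.2 in NZO and 7.4 to 8.5 in B6, and its difference of -0.63 ± 0.15 became -0.45 without B6 replicate 3. It did not pass with the covariate and only these 2 strains in the fit (-0.53, limma adjusted p = 0.186). Lipid droplet proteins as a list had 3 of 17 lower and 0 higher, with a median of -0.07, and 2 lower with the covariate.

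**Figure D3:**
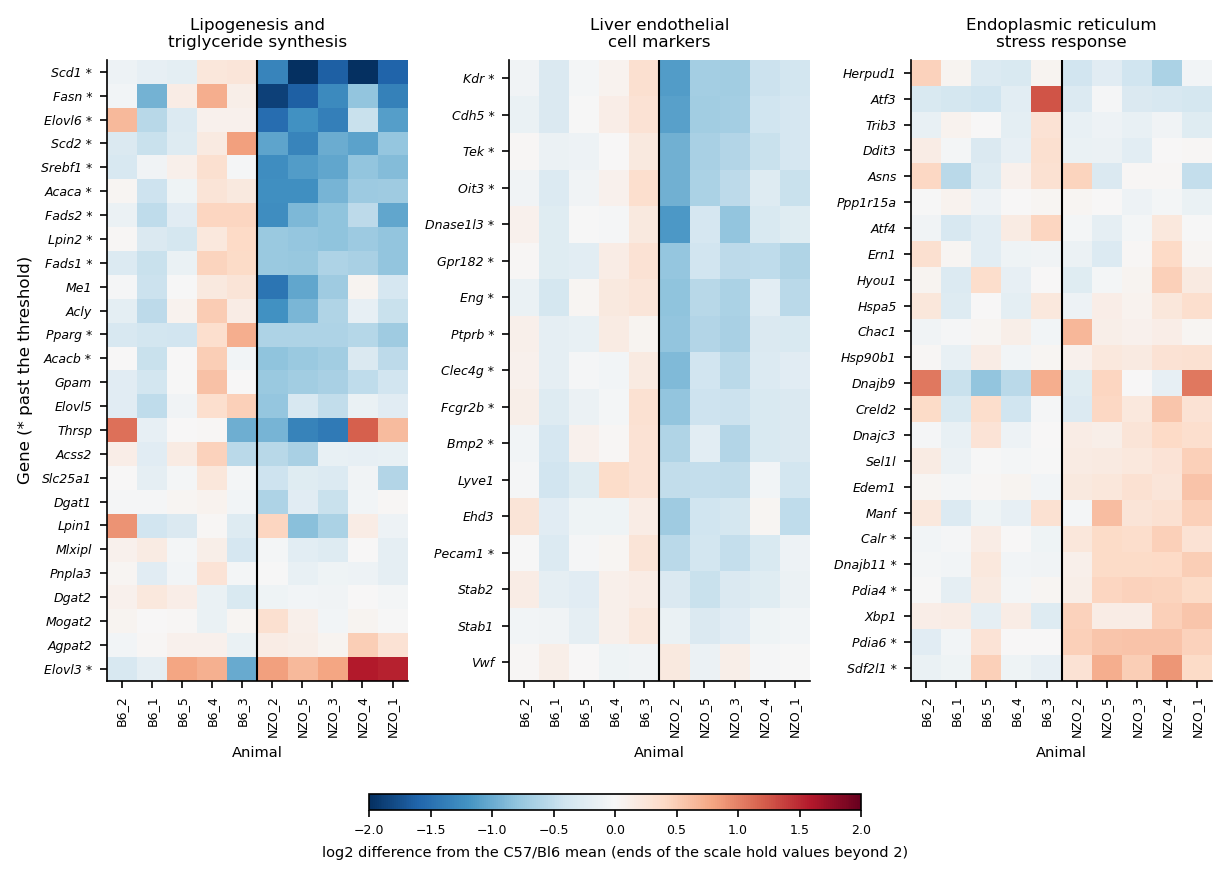
Difference of each animal from the B6 mean (colour, log2, limited to 2 each way) for the tested genes of 3 lists, with animals in columns ordered by array spread within strain, B6 left and NZO right of the line, and called genes marked by an asterisk. In the first list 11 genes are lower and 1 is higher in NZO, in the second 12 are lower, and in the third 5 are higher.

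Some genes of glucose release and of the insulin response were lower in NZO. Of 25 tested, 5 were lower, where 6.64% of all tested genes were, and 0 higher, with a median of -0.18, and 3 were lower with the covariate or without NZO replicate 2. Igfbp2, which binds insulin-like growth factors, is counted in another list, that of growth hormone and these factors. In that list 2 of 20 tested genes were higher and 2 lower (median 0.06), or 1 and 2 with the covariate. Igfbp2 was clear in every animal: 9.26, 9.14, 9.79, 8.9 and 10.03 in NZO and 11.36, 11.05, 11.63, 11.67 and 11.4 in B6. The groups lay over 1 unit apart, and the difference was -2 ± 0.18 (SE; limma adjusted p = 7.38e-08). Igfbp1, which rises in fasting, read 8.05, 8.51, 7.63, 7.74 and 8.07 in NZO and 8.87, 8.93, 11.62, 10.22 and 9.06 in B6. All NZO animals were below B6, but B6 replicate 3 was far above the rest, and the difference of -1.74 ± 0.35 was -1.27 without it (adjusted p = 0.000514). With the covariate and only these 2 strains in the fit it was -1.53 and did not pass (adjusted p = 0.109). Gys2, liver glycogen synthase, was lower (-0.61 ± 0.13).

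The gluconeogenic enzymes did not give a firm difference. Pck1, which commits oxaloacetate to glucose, was lower without overlap (11.24 to 12.05 in NZO, 12.07 to 12.71 in B6), at -0.80 ± 0.21 (SE; limma adjusted p = 0.0174). Its adjusted p was 0.0527 with the covariate, 0.0515 without B6 replicate 3, and 0.0528 or 0.0554 without NZO replicate 2 or 5. G6pc, glucose-6-phosphatase, read 10.52 to 13 in NZO and 11.21 to 12.14 in B6, a difference of -0.29 ± 0.33 that did not pass (adjusted p = 0.604). Fgf21, a hormone of the fasted liver, read 7.17 to 7.37 in NZO and 6.98 to 7.69 in B6 apart from 10.1 in B6 replicate 3, and its difference of -0.53 ± 0.36 (adjusted p = 0.36) was 0.04 without that animal. Nr1d1, a clock repressor that turns with the hour of the day, was lower (-0.62 ± 0.15, adjusted p = 0.0102). The hour at which animals were killed is not given in the sources used here, and of 20 tested clock genes 1 was higher and 1 lower, or 1 and 2 with the covariate, with a median of -0.20.

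Genes of bile acid transport were among those lower in NZO, and hydroxylases of bile acid synthesis went both ways. Of 26 tested, 8 were lower and 1 higher, with a median of -0.17, and 6 were lower with the covariate. Cyp39a1, which hydroxylates an oxysterol on the way to bile acids, read 5.77, 6.75, 6.51, 5.44 and 6.49 in NZO and 8.09, 7.71, 9.25, 9.0 and 8.38 in B6. It was dim in 4 NZO animals and bright in all B6 animals, and the fitted difference of -2.29 ± 0.26 (SE; limma adjusted p = 2.22e-06) depends on those dim values. Cyp7b1, an oxysterol hydroxylase, was the higher gene of the list, with 12.77 to 13.16 in NZO and 9.28 to 12.78 in B6. Its difference of 1.26 ± 0.39 (adjusted p = 0.0423) was 0.67 without B6 replicate 3, the lowest. It did not pass with the covariate (adjusted p = 0.137) or in many other settings. One of these was the fit of only NZO and B6 without the covariate (limma adjusted p = 0.118). Cyp7a1, the enzyme that limits the rate of bile acid synthesis, varied within both strains, with 9.02 to 11.32 in NZO and 9.46 to 11.25 in B6, and its difference was -0.24 ± 0.41 (adjusted p = 0.738). Abcb11, the pump that exports bile salts, was lower without overlap, with 11.39 to 11.95 against 12.04 to 12.49 and a difference of -0.65 ± 0.11 (adjusted p = 0.000245). The uptake carrier Slco1a4 was lower (-1.22 ± 0.21). So was the basolateral exporter Abcc3 (-1.39 ± 0.19), which is counted in another list and not in this one. Abcg5, a sterol exporter that is also in the bile acid list, was lower (-0.76 ± 0.14). Cholesterol handling showed the same sign in Scarb1, the HDL receptor (-0.69 ± 0.10), and in Sc5d, a late enzyme of cholesterol synthesis (-0.81 ± 0.12). Sc5d was the 1 called gene among 22 of cholesterol synthesis (median 0.08), and of 21 tested genes of lipoprotein assembly 5 were lower and 0 higher, with a median of -0.11. That count was 3 lower and 1 higher with the covariate, and 3 lower without NZO replicate 2 or 3 or without B6 replicate 2, 3 or 4.

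**Figure D4:**
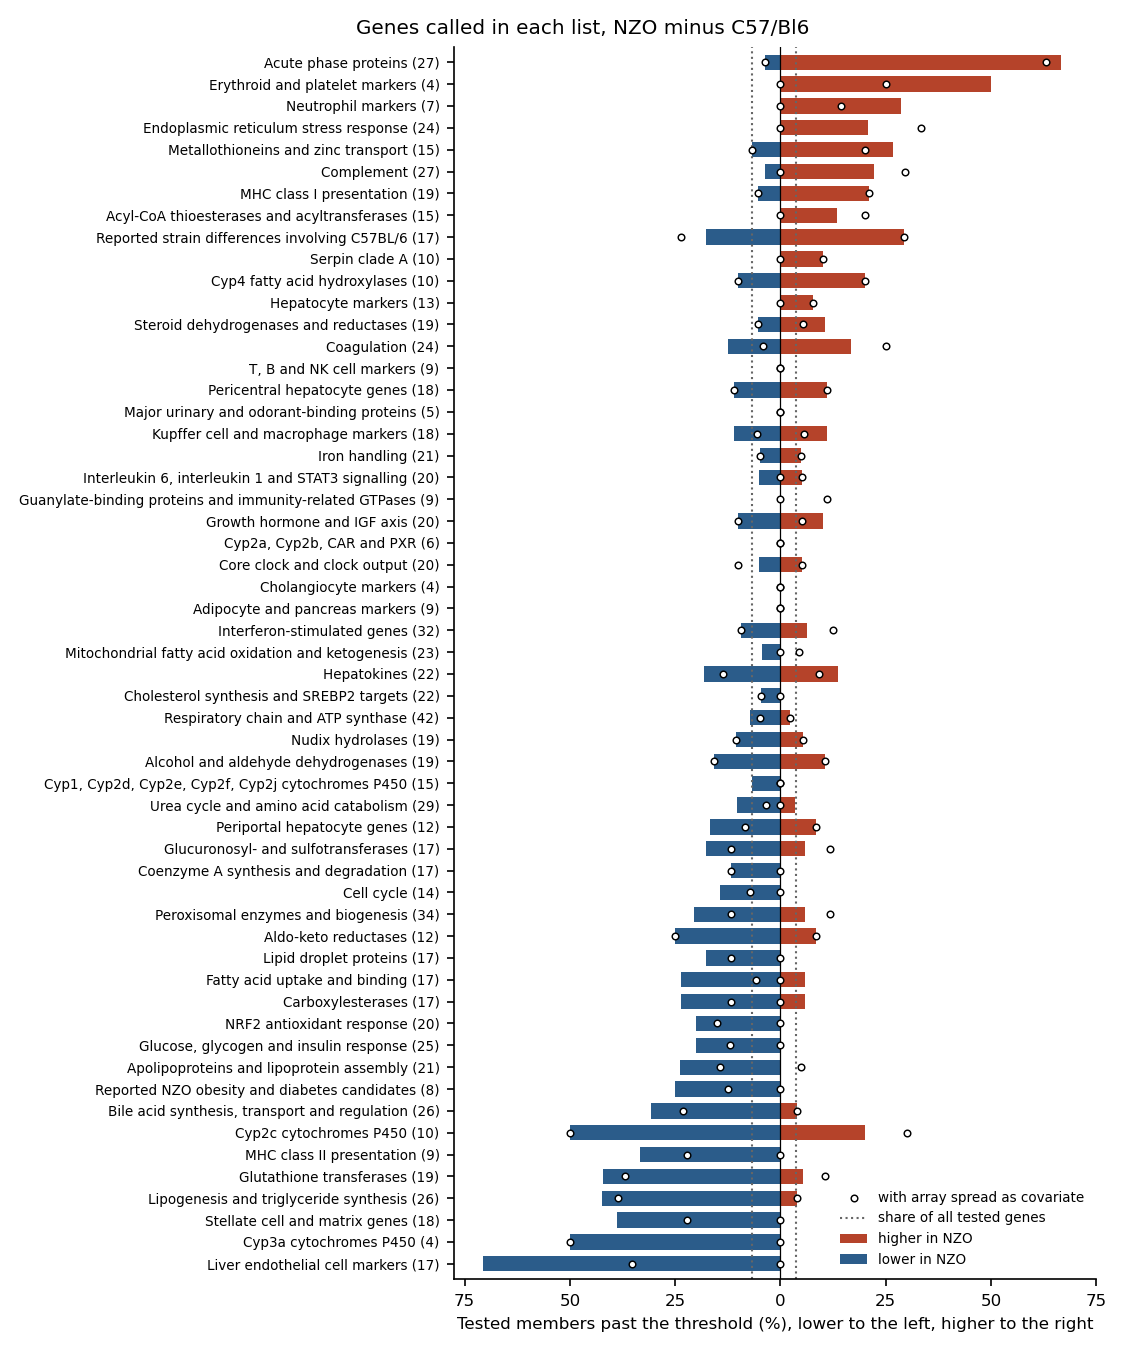
Share of the tested members of each list (number in brackets) that were higher (right, red) or lower (left, blue) in NZO, in percent, with circles for the fit with array spread as a covariate and dotted lines at the shares over all tested genes, 3.63% higher and 6.64% lower. Acute phase proteins reach farthest to the right, with 18 of 27, and liver endothelial markers farthest to the left, with 12 of 17.

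Secreted acute phase proteins were higher in NZO. Of 27 tested, 18 were higher and 1 lower, with a median of 0.59, and with the covariate 17 were higher and 1 lower. Leaving out 1 animal at a time kept between 14 and 19 higher. Saa2, a serum amyloid that rides on HDL, read 12.77, 13.67, 13.62, 13.3 and 13.56 in NZO and 9.07, 9.19, 9.18, 9.36 and 9.5 in B6. Both groups were tight and far apart, a 17.4-fold difference. Saa1 (10.7-fold) and Saa3 (4.59-fold) were higher too without overlap. Saa1 read 11.91 to 12.56 in NZO and 8.11 to 9.33 in B6, and Saa3 read 8.69 to 10.4 and 7.27 to 7.54. Apcs, serum amyloid P, read 11.36 to 12.28 in NZO and 9.31 to 9.87 in B6. Orm2, an orosomucoid, was higher by 1.91 ± 0.37 (SE; limma adjusted p = 0.00119) with NZO replicate 4 at 8.75 near the B6 range of 7.97 to 8.59 and the other NZO animals at 10 or above. Hp, haptoglobin, was higher by 0.59 ± 0.09 and Serpina3n, a protease inhibitor, by 0.84 ± 0.12, both without overlap.

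The lower member of the acute phase list was Hamp, hepcidin, the hormone that holds iron in cells. It read 13.08, 9.42, 11.19, 10.47 and 11.71 in NZO and 13.29, 13.45, 13.29, 13.22 and 12.99 in B6. The B6 animals were all near 13 while the NZO animals ranged widely, and NZO replicate 1 lay within the B6 range. The difference was -2.07 ± 0.39 (SE; limma adjusted p = 0.000846), -2.55 without NZO replicate 1 and -1.64 without NZO replicate 2. It was -1.36 and did not pass with the covariate and only these 2 strains in the fit (adjusted p = 0.0967). Of 21 tested genes of iron handling, which include both Hp and Hamp, 1 was higher and 1 lower, with a median of -0.08. In the complement list 6 of 27 were higher and 1 lower, with a median of 0.11, and 8 were higher and 0 lower with the covariate, but 3 were higher without B6 replicate 3. C4a was higher by 1 ± 0.15, and C9 (0.57 ± 0.10) and C8a (0.46 ± 0.09), both of the membrane attack complex, were higher without overlap. Signalling genes of interleukins 6 and 1 had 1 of 20 higher and 1 lower, and 0 lower with the covariate, with a median of 0.02. Of 7 tested neutrophil markers 2 were higher, Lcn2 and S100a9. That count was 1 with the covariate and 0 without NZO replicate 2 or B6 replicate 4, and S100a8 and Ly6g were dim in all 10 animals. The differences of the 7 tested markers ran from 0.08 to 2.01, with a median of 0.18. Their summed signal was 10.65 to 13.38 (log2) in NZO and 10.17 to 10.68 in B6. A sum follows its brightest members, so it is no measure of neutrophil number, and its part in the acute phase differences was not tested.

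Mt2 and Mt1 were higher in NZO; they are metallothioneins, small proteins that bind zinc and that both metals and inflammation raise. Mt2 read 12.67, 13.93, 13.76, 11.35 and 13.42 in NZO and 10.74, 8.73, 10.5, 9.58 and 8.82 in B6. Every NZO animal was above every B6 animal, but NZO replicate 4 exceeded B6 replicate 1 by less than 1 unit. Mt1, the neighbouring gene, kept the same order within NZO, with 12.49, 13.99, 13.53, 11.47 and 13.16, against 11.72, 10.62, 11.5, 10.82 and 10.28 in B6. NZO replicate 4 fell within the B6 range for Mt1, and its difference of 1.94 ± 0.51 (SE; limma adjusted p = 0.015) had an adjusted p of 0.0563 with the covariate and 0.056 without NZO replicate 2. Of 15 tested genes of metallothioneins and zinc transport 4 were higher and 1 lower, with a median of 0.16, and 3 and 1 with the covariate. Slc30a10, an exporter that carries manganese, was higher by 0.58 ± 0.14, and Slc39a4, a zinc importer, was lower (-0.46 ± 0.11). Slc39a4 did not pass with the covariate and only these 2 strains in the fit (-0.34, limma adjusted p = 0.0596).

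Because Mt1 and Mt2 lie side by side and moved together, their promoters are shown, 250 bases before to 50 bases after the start site, from RefSeq on GRCm38.p6. The reference is the genome of C57BL/6J, so these are not the NZO sequences. Mt2 spans chr8:94172368-94172667 and Mt1 chr8:94178839-94179138, both on the plus strand. The annotated Mt1 gene begins at 94178883, inside its window and before the start site used here. Capitals mark matches on either strand to the core of the metal response element, searched as TGCACNC and TGCGCNC.
Mt2: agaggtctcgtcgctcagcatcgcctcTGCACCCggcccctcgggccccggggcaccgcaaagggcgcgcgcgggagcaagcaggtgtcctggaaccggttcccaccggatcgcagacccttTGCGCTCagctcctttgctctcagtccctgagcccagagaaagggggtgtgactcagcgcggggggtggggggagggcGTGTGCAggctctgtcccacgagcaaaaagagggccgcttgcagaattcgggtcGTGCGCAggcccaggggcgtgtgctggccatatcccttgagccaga
Mt1: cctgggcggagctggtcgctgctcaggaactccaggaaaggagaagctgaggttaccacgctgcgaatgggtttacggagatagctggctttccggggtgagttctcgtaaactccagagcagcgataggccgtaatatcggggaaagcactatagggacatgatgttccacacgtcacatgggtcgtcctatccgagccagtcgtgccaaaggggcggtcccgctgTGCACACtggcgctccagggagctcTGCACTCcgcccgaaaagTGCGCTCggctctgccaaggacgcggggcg
Mt2 holds 4 matches and Mt1 holds 3, where 25.7% of 32851 promoters hold at least 1 and 1.97% hold at least 3. A match describes letters in the window and is neither a bound site nor a cause of the difference.

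Some genes of the endoplasmic reticulum stress response, those called being chaperones and folding enzymes, were higher in NZO by small amounts. Of 24 tested in that list, 5 were higher, 0 lower and 19 not past the threshold, with a median of 0.22, and 8 were higher with the covariate. Pdia6, a disulfide isomerase, read 12.22, 12.23, 12.33, 12.33 and 12.31 in NZO and 11.7, 11.54, 11.77, 11.76 and 12.03 in B6. The NZO animals lay within a narrow band above every B6 animal, and the difference was 0.52 ± 0.08 (SE; limma adjusted p = 5.01e-05). The chaperone Calr, calreticulin, was higher by 0.35 ± 0.07, also without overlap. Sdf2l1 (0.56 ± 0.13) and the co-chaperone Dnajb11 (0.36 ± 0.09) were higher as well. In both of these B6 replicate 5 stood above the other B6 animals, at 9.77 against 9.13 to 9.2 for Sdf2l1 and at 9.52 against 9.25 to 9.28 for Dnajb11. With equal array medians Dnajb11 did not pass (adjusted p = 0.0559).

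The promoters of Pdia6 and Calr are shown because each holds a match to the endoplasmic reticulum stress response element, searched on both strands as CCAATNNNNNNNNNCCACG and marked in capitals. They are RefSeq sequences of GRCm38.p6 over the same window, Pdia6 at chr12:17266339-17266638 on the plus strand and Calr at chr8:84846882-84847181 on the minus strand.
Pdia6: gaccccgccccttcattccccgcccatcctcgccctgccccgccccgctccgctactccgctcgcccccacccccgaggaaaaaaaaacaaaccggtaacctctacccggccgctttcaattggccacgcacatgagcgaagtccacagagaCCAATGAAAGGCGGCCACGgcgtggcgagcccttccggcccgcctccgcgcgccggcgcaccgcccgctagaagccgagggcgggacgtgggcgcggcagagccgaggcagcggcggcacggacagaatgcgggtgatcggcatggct
Calr: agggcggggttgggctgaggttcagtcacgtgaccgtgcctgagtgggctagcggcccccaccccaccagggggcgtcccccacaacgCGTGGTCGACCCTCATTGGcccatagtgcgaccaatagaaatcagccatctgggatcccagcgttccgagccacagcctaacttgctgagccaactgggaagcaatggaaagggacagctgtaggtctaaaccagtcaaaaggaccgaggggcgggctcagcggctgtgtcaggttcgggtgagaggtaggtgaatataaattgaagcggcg
That element is in 39 of 32851 promoters (0.119%). In the list of the endoplasmic reticulum stress response 6 of 22 genes with a promoter hold it, among them 2 of the 5 that were higher in NZO.

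Cytochromes P450 of the Cyp2c family differed in both directions. Of 10 tested Cyp2c genes 5 were lower and 2 higher, with a median of -1.36, and with the covariate 5 were lower and 3 higher. Cyp2c23, an epoxygenase of arachidonate, read 9.3, 9.61, 9.92, 9.62 and 9.84 in NZO and 12.59, 12.56, 12.68, 12.69 and 12.4 in B6, groups over 2 units apart with little spread in either. Cyp2c37, Cyp2c50, Cyp2c29 and Cyp2c54 were lower, with differences of -2.36 to -1.61, and B6 replicate 3 was the lowest B6 animal in all 4. Cyp2c29 did not pass with the covariate and only these 2 strains in the fit (-1.38, limma adjusted p = 0.0926). Cyp2c39 was higher, with 10.8, 9.47, 10.99, 9.78 and 9.53 in NZO against 7.01 to 7.47 in B6, and Cyp2c67 was higher by 0.84 ± 0.10 (SE; limma adjusted p = 5.99e-06). Of 4 tested Cyp3a genes Cyp3a11 and Cyp3a44 were lower (median of the 4, -0.84), also with the covariate (median -0.67). In the list of Cyp2a, Cyp2b and their receptors CAR and PXR 0 of 6 were called, also with the covariate, and in that of Cyp1, Cyp2d, Cyp2e, Cyp2f and Cyp2j 1 of 15 was lower, or 0 with the covariate. Cyp3a11, a main drug oxidase, read 10.89, 7.54, 9.32, 10.36 and 9.79 in NZO and 11.46, 11.49, 12.21, 11.51 and 11.51 in B6. NZO replicate 2, the array of narrowest spread among the 10, was far below the other NZO animals. The Cyp3a11 difference of -2.05 ± 0.39 was -1.54 without that animal and -1.55 with the covariate. The male fatty acid hydroxylases Cyp4a12a and Cyp4a12b were higher, by 1.11 ± 0.17 and 0.78 ± 0.16. Members of these families resemble each other in sequence, so a probe set may take up a relative's signal and the member that differed is not certain; this applies to the Akr1c, Saa, Gstm, Mx and Trim genes too.

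Among conjugating enzymes, 8 of 19 tested glutathione transferases were lower, where 6.64% of all tested genes were, and 1 was higher, with a median of -0.34, and with the covariate 7 were lower and 2 higher. Gstm6 read 6.9, 6.49, 6.85, 6.5 and 7.11 in NZO and 9.83, 9.74, 9.83, 9.89 and 9.88 in B6, and it was dim in 2 NZO animals. Gstm1, the most studied of the mu class, read 10.93 to 11.67 in NZO and 12.64 to 13.46 in B6, lower (-1.64 ± 0.14). Gstm3 (-1.91 ± 0.17, and -3.99 at its other probe set) and Gstt2 (-0.94 ± 0.19) were lower, while Gstm7 was higher by 0.95 ± 0.13 (SE; limma adjusted p = 1.92e-05). Of 17 tested glucuronosyl- and sulfotransferases 3 were lower and 1 higher, with a median of -0.08, and 2 and 2 with the covariate, with a median of 0.10. The sulfotransferase Sult1a1 was lower without overlap (9.02 to 9.37 against 10.61 to 11.25), and so was Papss2, which makes its sulfate donor (-0.96 ± 0.16). Nfe2l2, the transcription factor NRF2 that raises many of these enzymes, read 9.12 to 9.73 in NZO and 9.97 to 10.64 in B6, with a difference of -0.62 ± 0.13 (adjusted p = 0.00275) and -0.49 without B6 replicate 3. With the covariate and only these 2 strains in the fit it did not pass (-0.45, adjusted p = 0.0858). Of 20 tested genes of the NRF2 response 4 were lower, Nfe2l2 and Abcc3 included, and 0 higher, with a median of -0.13. The lower count was 3 with the covariate and 7 without B6 replicate 1.

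Among genes of peroxisomes, where very long fatty acids are shortened, 7 of 34 tested were lower, where 6.64% of all tested genes were, and 2 higher, with a median of -0.08, and 4 were lower and 4 higher with the covariate. Without NZO replicate 2 or 5 or B6 replicate 4 the lower count was 4. Abcd2, a peroxisomal importer of fatty acyl-CoA, read 6.94, 6.13, 6.41, 6.15 and 6.46 in NZO and 7.85, 7.64, 9.71, 9.14 and 7.69 in B6. It was dim in 4 NZO animals, and B6 replicates 3 and 4 stood above the other B6 animals. The thiolase Acaa1b was lower (-0.89 ± 0.17) and Hacl1, a lyase of branched and hydroxy fatty acids, was higher by 0.69 ± 0.13 (SE; limma adjusted p = 0.00115). Acnat2, which joins fatty acids to taurine, read 8.6 to 9.89 in NZO and 6.36 to 7.51 in B6. Nudt19 read 7.59, 7.38, 7.32, 7.42 and 7.69 in NZO and 8.87, 8.6, 8.71, 8.87 and 8.71 in B6, and with the covariate its difference was -1.14 (adjusted p = 1.06e-07). Among 17 tested genes that build or break down coenzyme A the calls were Nudt19 and Coasy, and Coasy, which completes coenzyme A, had -0.28 with the covariate (adjusted p = 0.0356). Coasy did not pass with the covariate and only these 2 strains in the fit (-0.29, limma adjusted p = 0.0596).

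The counts of called mitochondrial genes were small but depended on 1 array. Of 23 genes of fatty acid oxidation and ketogenesis 1 was lower and 0 higher (median -0.06), and of 42 of the respiratory chain 3 were lower and 1 higher (median -0.16), where 10.3% of all tested genes were called. With the covariate these were 0 and 1, and 2 and 1. Without NZO replicate 1, the array of widest spread, 13 of the respiratory chain were lower. Nnt, which makes mitochondrial NADPH and is known to be deleted in part in the C57BL/6J substrain, read 9.94, 9.66, 9.75, 9.78 and 9.72 in NZO and 8.94, 8.78, 9.43, 9.17 and 9.11 in B6. The strains did not overlap, yet no B6 animal was dim for Nnt, and which exons the probe set covers is not given in the sources used here. The difference was 0.68 ± 0.12 (SE; limma adjusted p = 0.000461), and 0.86 with the covariate.

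Single antiviral genes differed widely. Of 32 tested interferon-stimulated genes 3 were lower and 2 higher, with a median of -0.02. Mx1 and Trim12a, both in that count, were bright enough to be tested mainly through the strain that held more, so the count is no support for a shift of the list. It was 1 and 1 with the stricter filter at the 60th percentile, 3 lower and 4 higher with the covariate, 5 lower without NZO replicate 1 and 4 higher without B6 replicate 3. Bst2, tetherin, which holds budding virus at the cell surface, read 9.2, 8.99, 9.01, 9.07 and 9.06 in NZO and 11.26, 11.04, 11.45, 10.96 and 11.07 in B6, groups over 1 unit apart with little spread. The GTPase Mx1, which many laboratory strains carry in a defective form, was dim in all 5 B6 animals (5.84 to 6.38) and read 6.9 to 8.43 in NZO, higher by at least 1.82-fold. Its neighbour Mx2 was dim in all 5 NZO animals (4.98 to 5.22) and read 6.77 to 7.4 in B6, lower by at least 1.24-fold. In the Trim cluster on another chromosome, Trim12a was dim in all NZO animals (4.58 to 4.93) and read 7.39 to 8.56 in B6, while Trim12c beside it was higher in NZO by 1.16 ± 0.15 (SE; limma adjusted p = 1.92e-05). Trim30d was dim in all 5 NZO animals, lower by at least 1.55-fold.

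In the MHC class II list 3 of 9 tested genes were lower, where 6.64% of all tested genes were, and 0 higher, with a median of -0.18, and 2 were lower with the covariate. H2-Aa, the alpha chain, read 8.85, 8.3, 8.1, 8.41 and 8.48 in NZO and 8.98, 9.66, 10.16, 9.96 and 9.23 in B6. The groups were apart by a small gap, since B6 replicate 1 lay near NZO replicate 1, and the difference was -1.17 ± 0.28 (SE; limma adjusted p = 0.00703). The beta chain gene H2-Ab1 differed by -1.08 ± 0.26. In class I presentation 4 of 19 were higher and 1 lower, with a median of -0.01, including the immunoproteasome subunit Psmb8 (0.47 ± 0.11) and the peptide transporter Tap2 (0.41 ± 0.07). MHC genes vary in sequence between strains, and sequence differences under the probes were not examined for any gene here. The natural killer receptor ligands Clec2h and Clec2d were lower without overlap (-2.07 ± 0.17 and -1.72 ± 0.16).

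Many markers of endothelial cells and some genes of stellate cells and matrix were lower in NZO. Endothelial and stellate cells line and wrap the sinusoids. Of 17 tested liver endothelial markers 12 were lower, where 6.64% of all tested genes were, and 0 higher, with a median of -0.46 against 0.009 over all. With the covariate 6 were lower and the median was -0.32, and 8 were lower without B6 replicate 3 and 6 without NZO replicate 2. Kdr, the main VEGF receptor, read 8.92, 8.17, 8.59, 8.85 and 8.61 in NZO and 8.99, 9.21, 9.61, 9.35 and 9.25 in B6. The gap between NZO replicate 1 and B6 replicate 1 was narrow, and the difference was -0.66 ± 0.14 (SE; limma adjusted p = 0.00357). Cdh5, the endothelial cadherin (-0.64 ± 0.13), and Tek, the angiopoietin receptor (-0.60 ± 0.10), were lower without overlap and were also called with the covariate. Pecam1, an adhesion molecule of all endothelium (-0.36 ± 0.1), was called only without it. The summed signal of the list was 12.51 to 13.01 (log2) in NZO and 13.03 to 13.48 in B6.

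Stellate cell and matrix genes were lower in 7 of 18 tested, against the same 6.64%, and higher in 0, with a median of -0.29, and 4 were lower with the covariate and 4 without B6 replicate 3 or 4 or NZO replicate 2. By size the first of the lower genes were Lum, Lrat, Ecm1 and Dcn, and the differences of the list ran from -0.93 to 0.01. Ecm1, a matrix protein, was lower (-0.66 ± 0.11), with 9.01 to 9.62 in NZO and 9.86 to 10.15 in B6. The summed signal of the list was 12.57 to 12.92 in NZO and 12.85 to 13.59 in B6. Kupffer cell and macrophage markers were mixed, with 2 of 18 lower and 2 higher and a median of -0.12, 1 and 1 with the covariate, and 1 lower and 0 higher without B6 replicate 3 or 4. Without the covariate the higher genes were Cd163 and Cx3cr1, and the lower ones C1qa and Clec4f. Clec4f, a lectin of Kupffer cells, was lower without overlap (-0.69 ± 0.12), and the differences of the list ran from there to 0.55. The summed signals overlapped (12.84 to 13.53 in NZO, 13.03 to 13.55 in B6). Of 13 tested hepatocyte markers 1 was higher and 0 lower, and Alb, albumin, Ttr, transthyretin, and Hnf4a, a hepatocyte transcription factor, were bright in all 10 animals and not called. Cholangiocyte, lymphocyte and adipocyte or pancreas lists had no called gene, and Epcam, Cd79a, Adipoq, Lep and Prss2 were dim in at least 9 of the 10 animals. Of 4 tested erythroid and platelet markers 2 were higher, among them Alas2, the heme enzyme of red cells (0.58 ± 0.11), and 1 was higher with the covariate. In whole liver, fewer cells of a type and less RNA in each cell cannot be told apart.

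Genes placed along the liver lobule differed in both directions. Of 18 tested pericentral genes 2 were higher and 2 lower (median -0.10), also with the covariate, and of 12 periportal genes 1 was higher and 2 lower (median 0.05), or 1 and 1 with the covariate, where 10.3% of all tested genes were called. Rhbg, an ammonium carrier of pericentral hepatocytes, was higher by 1.10 ± 0.14 (SE; limma adjusted p = 7.61e-06), with 8.99 to 9.59 in NZO and 7.61 to 8.49 in B6. Cdh1, the cadherin of periportal hepatocytes, was lower (-0.73 ± 0.12).

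Some neighbouring genes differed together. There were 14 pairs of called genes next to each other in the order of tested genes that each differed by at least 2-fold. In 11 of them both went the same way. Untested genes may lie between, and Clec2h and Clec2d are 503241 bases apart. Of all tested genes 0.895% were called with such a difference, and the share of all adjacent pairs that went the same way was not counted. The pairs are thus a description and no measure of a link between neighbours. Nuggc, a nuclear GTPase, was dim in all 5 B6 animals and higher in NZO by at least 2.07-fold, and Scara5 beside it, a ferritin receptor, was higher by 1 ± 0.14 (SE; limma adjusted p = 4.68e-05). Saa1 with Saa2, Mt1 with Mt2, Scd1 with Scd2, Gstm3 with Gstm6 and H2-Aa with H2-Ab1 are other such pairs. The 3 opposite pairs were Mx1 with Mx2, Trim12a with Trim12c, and Cyp2c29 with Cyp2c39, each within a family of close copies. Pairs that went the same way also hold close copies, such as Saa1 with Saa2, Gstm3 with Gstm6 and Cyp3a11 with Cyp3a44. In either kind of pair a probe set may take up a relative's signal.

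Among the 379 genes that passed only with array spread in the fit were Ugt3a1 and Stap1. Ugt3a1, a glycosyltransferase, read 10.22 to 11.05 in NZO and 10.09 to 10.52 in B6, with NZO replicate 2, the array of narrowest spread, at the bottom of its group. Its difference was 0.36 ± 0.18 (SE; limma adjusted p = 0.209) without the covariate and 0.62 with it (adjusted p = 0.00621). Stap1, an adaptor of B cells and macrophages, went from 0.51 ± 0.20 (adjusted p = 0.119) to 0.79 (adjusted p = 0.00595).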

How the data were processed

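Liver RNA with an integrity number above 8 was hybridized to 1 array per animal, per the labels' protocols. The authors deposited log2 values made with Affymetrix Expression Console by RMA, per the submitters' processing notes, which give no versions; they were used as deposited. Animals were numbered within a strain in accession order. The platform annotation gave 1 symbol to 21789 of 35556 probe sets, and the brightest probe set stood for each gene. Tested genes exceeded the array's own 40th percentile on 5 arrays or more. The test was limma 3.58.1 in R 4.3.3, with a mean for each of 4 strains (16 residual and 6.37 prior degrees of freedom), moderation that follows intensity, and p-values adjusted by Benjamini-Hochberg over 14190 genes. Array spread was the interquartile range, entered as a covariate in a further fit. Gene locations and promoters came from RefSeq (GRCm38.p6). The fits were tested on simulated data. Alternatives were other filters, scalings, moderations and weights, and leaving out each animal; the covariate with only NZO and B6 fitted was added after seeing the data. The gene lists and the genes named were chosen with earlier results of these data known. Named genes were the 15 largest differences each way without overlap, up to 4 called members each way of each list, a short list of genes of interest and marker genes, genes called by 1 of the 2 fits, and neighbouring pairs. Arrays give no counts, so their number limits the precision. Figures were drawn with matplotlib 3.10.9.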

Additional observations from a re-analysis of the deposited data

Results flagged for a closer look

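Each value below lay farther from the other 4 animals of its strain than Dixon's 95% limit for 5 values allows. Of 220 groups examined (each named gene in each strain), 16 gave such a value, and chance gives about 1 in 20. No explanation was tested.

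B6 replicate 3 gave 9 of the 16. It was above its group for Akr1c18 (7.33 against 5.91 to 6.22), Cyp3a11 (12.21 against 11.46 to 11.51), Cyp3a44 (8.45 against 7.56 to 7.82), Nfe2l2 (10.64 against 9.97 to 10.1), Fgf21 (10.1 against 6.98 to 7.69), Mx2 (7.4 against 6.77 to 6.91), Nt5e (8.29 against 7 to 7.24) and Aldh3a2 (11.41 against 10.44 to 10.66), and below it for C8a (11.94 against 12.17 to 12.24). B6 replicate 5 was above its group for 2 genes of the endoplasmic reticulum, Sdf2l1 (9.77) and Dnajb11 (9.52).

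In NZO, replicate 1 was low for Pparg (7.06 against 7.16 to 7.2) and high for Trim12c (8.77 against 7.84 to 8.07). Replicate 2 was low for Acaa1b (9.05 against 9.98 to 10.26) and Aldh3a2 (8.53 against 9.24 to 9.52), and replicate 4 was low for Trim12a (4.58 against 4.86 to 4.93), where all NZO values are dim.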

How the results depend on the processing

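The labels pair no NZO animal with a B6 animal, so no paired analysis was made. The 1457 genes called became 3165 with array weights (1371 higher, 1794 lower), 251 with a test against a fold of 1.2 (98 higher, 153 lower) and 127 with a difference of at least 2-fold. Leaving out 1 animal at a time gave 972 to 2175 calls, 344 to 903 higher and 628 to 1272 lower, the lowest without B6 replicate 4 and the highest without NZO replicate 1. With the covariate, 1378 calls became 712 to 1364 without 1 animal, lowest without NZO replicate 1, and 996 with only NZO and B6 fitted, 503 of them lower. The difference in array spread was -0.137 to -0.064. Of 110 named genes, 105 could be run in all 23 settings, and 67 of these kept their call and direction in each; the other 5, dim in a strain or near the filter, were left untested by some. Values that changed sign had not passed the threshold: Cyp7a1 was 0.19 with array weights and -0.56 to 0.01 without 1 animal, G6pc was 0.07 with the covariate and only NZO and B6 fitted, and Fgf21 was -0.74 to 0.04, the latter without B6 replicate 3. The cause was not tested. A dim level limits what a fold can show.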

Other observations

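Probe sets outside the gene comparison differed as well. Of 6054 tested probe sets that carry no symbol here, 319 were called by limma at an adjusted p under 0.05 (5.27%), 126 higher and 193 lower in NZO. Of 993 tested probe sets with several symbols, 101 were called (10.2%), 42 higher and 59 lower. With array spread as a covariate these counts were 309 and 119.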
